A study of Mus musculus with 4 samples.

Results

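The genes described here encode the kinases of the mitogen-activated protein (MAP) kinase cascades. They were chosen by symbol alone, Mapk, Map2k, Map3k or Map4k followed by a number, and 43 of the 41324 genes in the deposited table matched: 13 Mapk, 7 Map2k, 18 Map3k and 5 Map4k genes. The RNA came from RAW264.7, a mouse macrophage-like cell line, and was sequenced after rRNA depletion from untreated cells and after 2, 4 and 6 h with 10 µg/ml actinomycin D, which blocks transcription. Each of these 4 states is 1 library, the untreated library being the 0 h point, and no further treatment or genetic change is named for any of them. The labels do not say whether the libraries came from separate cultures. The p-values below weigh a fitted trend over time against the scatter of these 4 libraries around the fit. They cannot be taken as a measure of the spread between cultures.

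In a MAP kinase cascade a first-tier kinase (MAP3K) phosphorylates a second-tier kinase (MAP2K), which in turn phosphorylates a MAP kinase (MAPK). Kinases of the STE20 type (MAP4K) can act above the first tier, and the terminal kinases ERK, JNK, p38 and ERK5 phosphorylate transcription factors and other kinases. In macrophages these cascades run below Toll-like and cytokine receptors and set much of the inflammatory output. With transcription blocked, the course of an mRNA after the treatment reflects how fast the existing molecules are lost.

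The libraries held 12762100 to 70289647 counts, the lowest at 6 h, where low counts widen every interval given below. These intervals cover counting error only. The 10 macrophage markers examined summed to 4134 to 5422 CPM (counts scaled to a common library size) over the libraries, and the 22 markers of T cells, B cells, fibroblasts, epithelium and endothelium to 2.06 to 2.53 CPM, with 13 of those 22 at 0 throughout. Among the macrophage markers Lyz2 was highest, at 1443 to 2704 CPM. Mrc1 was near 0, at 0.33 to 0.62 CPM, below the T-cell marker Lck at 1.04 to 1.91 CPM. Levels are given as a percentage of the untreated library after TMM scaling, which sets the typical RNA near 100% at every time. A value above 100% therefore means loss slower than that of the typical RNA, and a fall in the number of cells or in RNA per cell cannot be told apart or seen on this scale. Levels scaled by the divisors behind the authors' own normalized values are lower at every treated time: with them the median slope of all genes was −0.086 log2 per h, and each of the 15 members with a positive slope after TMM scaling had a negative one. Every positive member slope given below turns in this way, and 12 of the 15 also turn with scaling on ribosomal protein mRNAs.

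Of the 43 genes, 35 had a mean of at least 1 CPM and were tested, namely 8 Mapk, 7 Map2k, 15 Map3k and all 5 Map4k genes. The other 8 were at or near 0. Mapk4 had no count in any library, Mapk10, the third JNK, had 1 count in all, in the untreated library, and Map3k21 had 1 count, at 6 h. Mapk12 (p38 gamma) had 0, 2, 1 and 0 counts at 0, 2, 4 and 6 h, and Mapk15 had 0, 1, 1 and 1. Map3k15 had 1 count at 2 h and Map3k19 had 1, 2, 1 and 0. Mapk13 (p38 delta) was the best covered of them, with 20, 36, 67 and 10 counts. JNK and p38 mRNA in these cells thus came almost wholly from Mapk8 and Mapk9, and from Mapk14 and Mapk11. Per kilobase of annotated exon, the untreated level was highest for Map2k1 (MEK1), at 58.1 CPM per kb, and Map2k3 (MKK3), at 47.9. Mapk14, Mapk6 and Mapk3 stood close together on the same scale at 31.1, 28.6 and 28.2 CPM per kb. The highest first-tier levels were lower, at 19.3 for Map3k3, 17.9 for Map3k11 and 16.7 for Map3k1.

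The first tier held nearly all of the lowest levels. Of the first-tier genes, 13 of 15 had a negative slope, where the median slope of all genes tested was 0.0014 log2 per h. Map3k13, which passed the CPM filter through its early libraries, is among the 13. The median levels of the 15 first-tier genes at 2, 4 and 6 h were 69.7%, 58.5% and 64.1% of untreated. The Mapk genes had medians of 103.8%, 115.3% and 113.4%, the Map2k genes 103.8%, 103.7% and 93.9%, and the Map4k genes 104.5%, 106.6% and 108.1%, against 100.7%, 101.1% and 100.5% over all 10837 genes tested. Outside the first tier, the low exceptions were Mapk7, Map2k7 and Map4k3. These tier values are descriptions of a few genes in 4 libraries, and the difference between tiers was not tested.

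**Figure D1:**
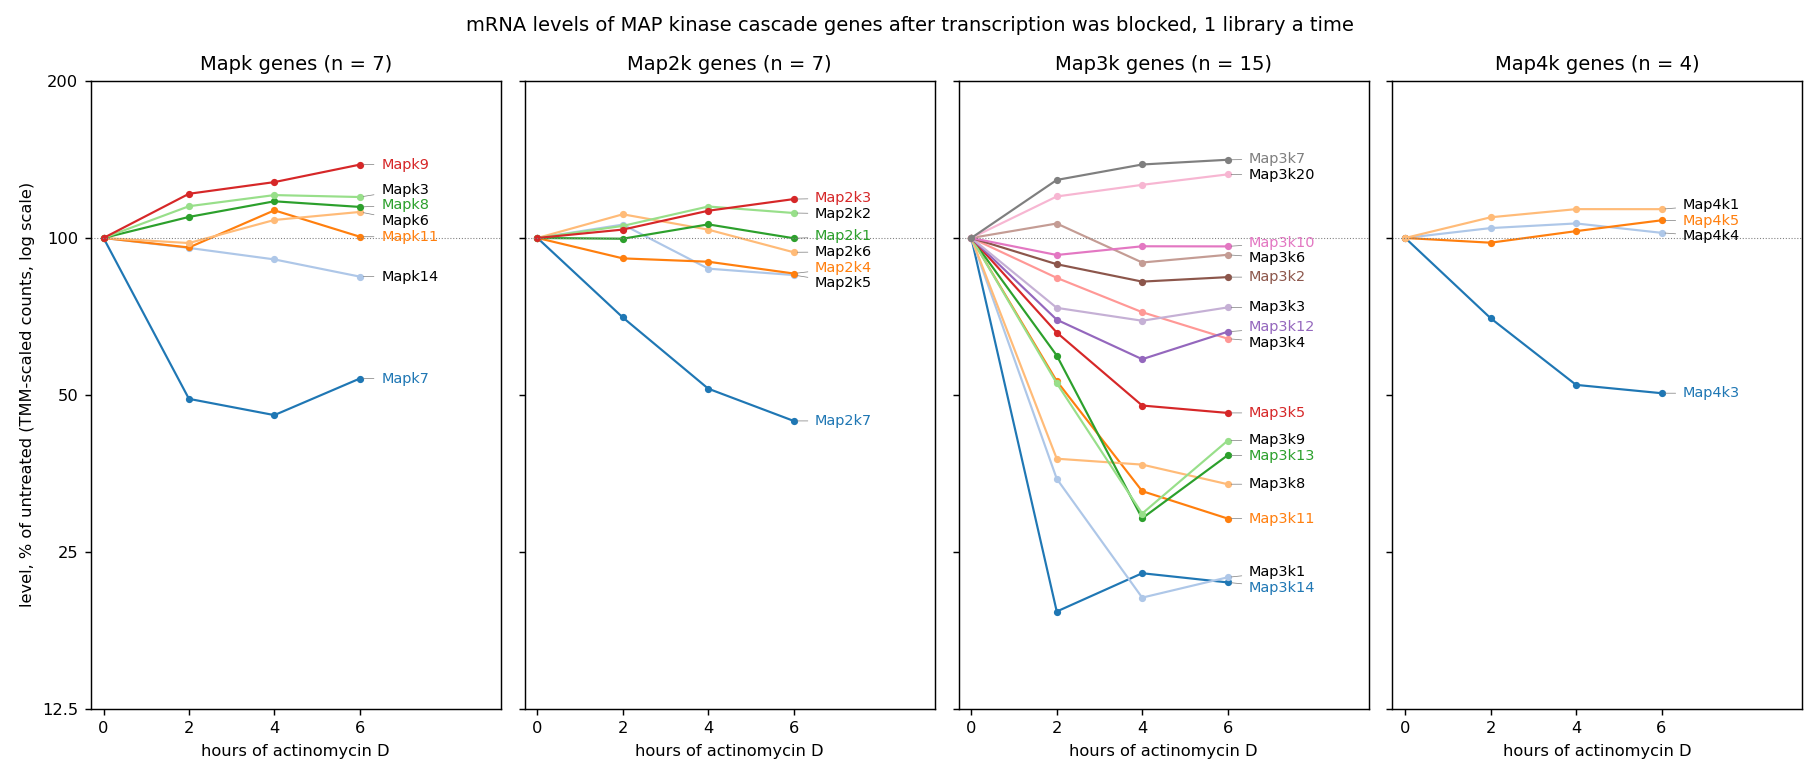
The level of each of 33 tested mRNAs, in percent of the untreated library after TMM scaling (y axis, log scale), is plotted against hours of actinomycin D (x axis), with 1 panel per tier and 1 library per time. Most Mapk, Map2k and Map4k lines stay near 100%, with Mapk7, Map2k7 and Map4k3 below, whereas the Map3k lines spread from 21.8% to 141.3% at 6 h.

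A slope in log2 per h was fitted to the counts of the 4 libraries, and p-values were adjusted over all genes tested (edgeR's quasi-likelihood test with Benjamini-Hochberg adjustment). Of the 35 genes, 6 fell, namely Map2k7, Map3k1, Map3k4, Map3k5, Map3k11 and Map4k3, and 1, Mapk9, rose. The share that fell, 17.1%, is that of all genes, of which 17.2% fell, and the share that rose, 2.86%, compares with 8.63% of all genes, so the family as a whole did not stand apart by its count of calls. At an unadjusted p under 0.05, 11 members had negative and 5 had positive slopes, against 26.7% and 20.6% of all genes. The median slope was −0.029 log2 per h over the members and 0.0014 over all genes, whose quartiles were −0.10 and 0.051. By tier the median slope was 0.033 for Mapk, −0.018 for Map2k, −0.11 for Map3k and 0.020 for Map4k genes. With the authors' divisors 20 of the 35 fell and none rose (none at an unadjusted p under 0.05 in edgeR either), against 46.5% of all genes that fell. Without the 4 h library, the deepest, 3.68% of all genes fell and of the members only Map3k11 did; without the 6 h library 10 fell, and 21.7% of all genes.

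**Figure D2:**
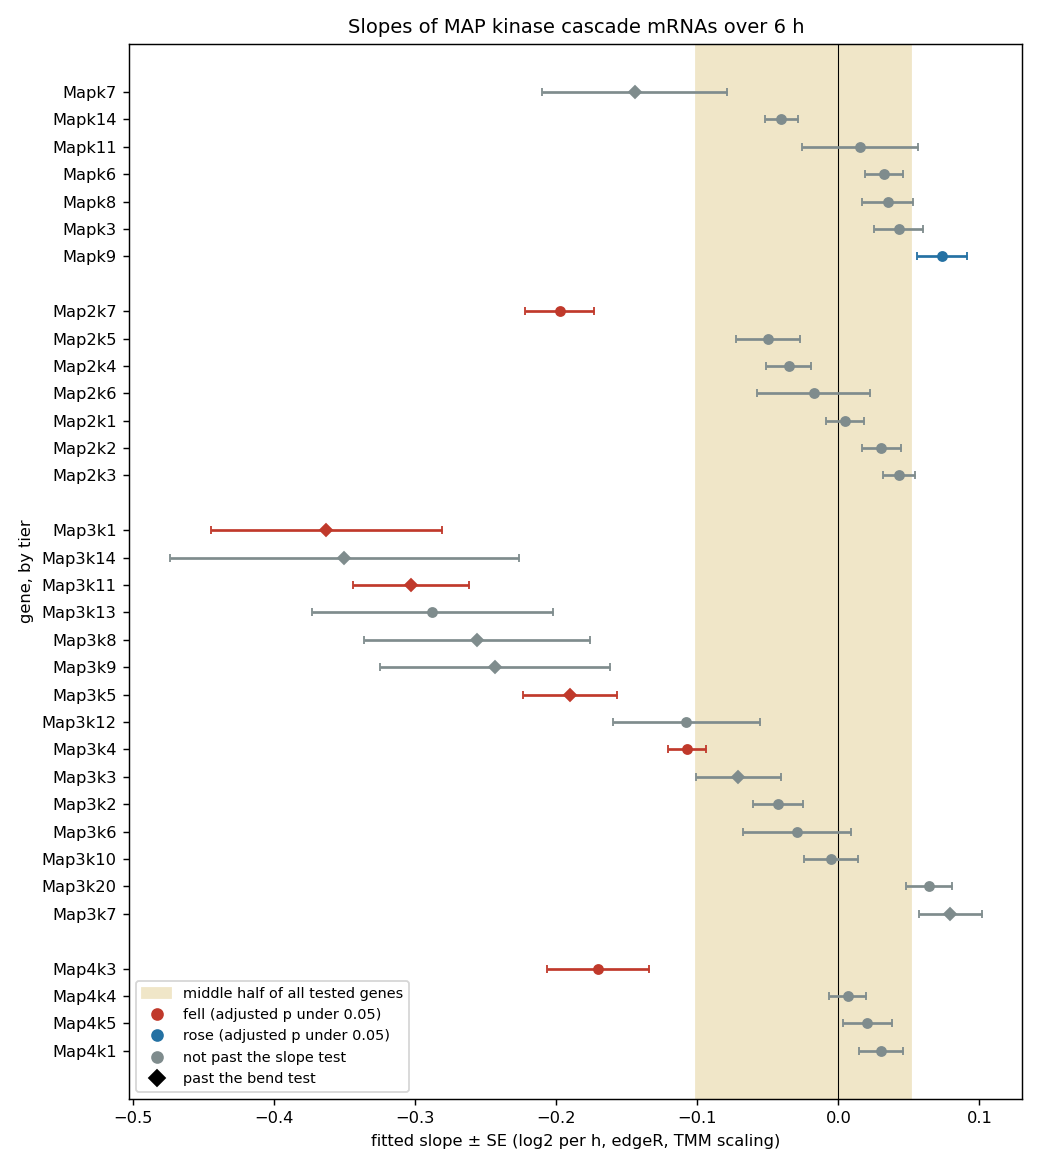
The fitted slope in log2 per h (x axis) is plotted with its standard error for each of 33 tested genes (y axis), ordered within tiers, with the middle range of all tested genes shaded. The falling genes run from Map3k1 at −0.36 to Map3k4 at −0.11, Mapk9 lies at 0.074, and diamonds mark the 9 of these genes whose curve bent.

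A line misses genes that dropped early and then levelled off. The quadratic time term was therefore tested in the same way, with 1 residual degree of freedom. It passed for 10 of 35 genes, against 31.1% of all genes. It was upward, as in a curve that flattens or turns up, for Mapk7, Map3k1, Map3k3, Map3k5, Map3k8, Map3k9, Map3k11 and Map3k14 (19% of all genes), and downward for 2, Map3k7 among them. Of the 8 upward bends, 7 were in the first tier. Testing slope and bend together, a test added after seeing the data, called 16 members lower and 10 higher, against 36.8% and 32.8% of all genes. Among the 10 higher were Mapk3, Mapk6, Mapk8, Mapk9, Map2k2, Map2k3, Map3k7, Map3k20 and Map4k1. Of the 15 first-tier genes, 11 were lower and 2 were higher by that test. A level under 50% of untreated was reached by 4 members at 2 h, 8 at 4 h and 8 at 6 h, where 9.08%, 14.8% and 16.2% of all genes were that low. At 6 h, 7 of those 8 were first-tier genes, among them Map3k13, which passed the CPM filter through its early libraries.

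AU-rich elements in the 3' untranslated region (UTR) mark many short-lived inflammatory mRNAs, so the UTRs were searched for the pentamer ATTTA and for the longer nonamer TTATTTATT, which contains the pentamer. Sequences and coordinates are from GENCODE release M21 on the mm10 build, in which all 43 symbols were matched, and only the mRNA strand was searched. The pentamer was found in 23 of the 35 tested members (65.7%) and in 67.9% of the 9570 tested genes with an annotated 3' UTR. The nonamer was found in 3 tested members (8.57%) and in 7.50% of those genes. The sites in the tested members are shown, with the nonamer in capitals:

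Map3k13 (chr16:21928253-21928281, plus strand): aacattgattTTATTTATTtttgttggac

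Map4k5 (chr12:69804763-69804791, minus strand): tatttaatccTTATTTATTaatctcttgc

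Mapk6 (chr9:75387348-75387376, minus strand): acatcacatcTTATTTATTtttagcaaat

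Of these, Map4k5 and Mapk6 were at 108.1% and 112.2% of untreated at 6 h. Map3k13 was at 38.3%, but on 10 counts (counting interval 17.5 to 75.0%). Since Map3k13 passed the CPM filter through its early libraries, its low level here and in the tally below is a description only. Of the 8 members under 50% at 6 h, 5 held the pentamer, namely Map3k1, Map3k8 and Map3k13 with 4 each, Map2k7 with 3 and Map3k5 with 1, and Map3k14, Map3k11 and Map3k9 had 0 matches, as did Mapk7. Map4k3, which fell, had 8 in 1331 bases, and Mapk9, at 138.3% of untreated at 6 h, had 7 in 3132 bases. Across the 35 members the slope had a Spearman correlation of 0.17 with the number of pentamers and of −0.027 with the length of the 3' UTR, and across the 9570 genes these were −0.0070 and −0.049. With coding length it was −0.49 over the members and −0.20 over the 9570 genes. The median coding length was 2820 bases in the first tier, 2541 in the Map4k, 1204.5 in the Mapk and 1191 in the Map2k genes, and the correlation within tiers was not tested. Genes are not independent replicates, and a match is not a site shown to act.

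**Figure D3:**
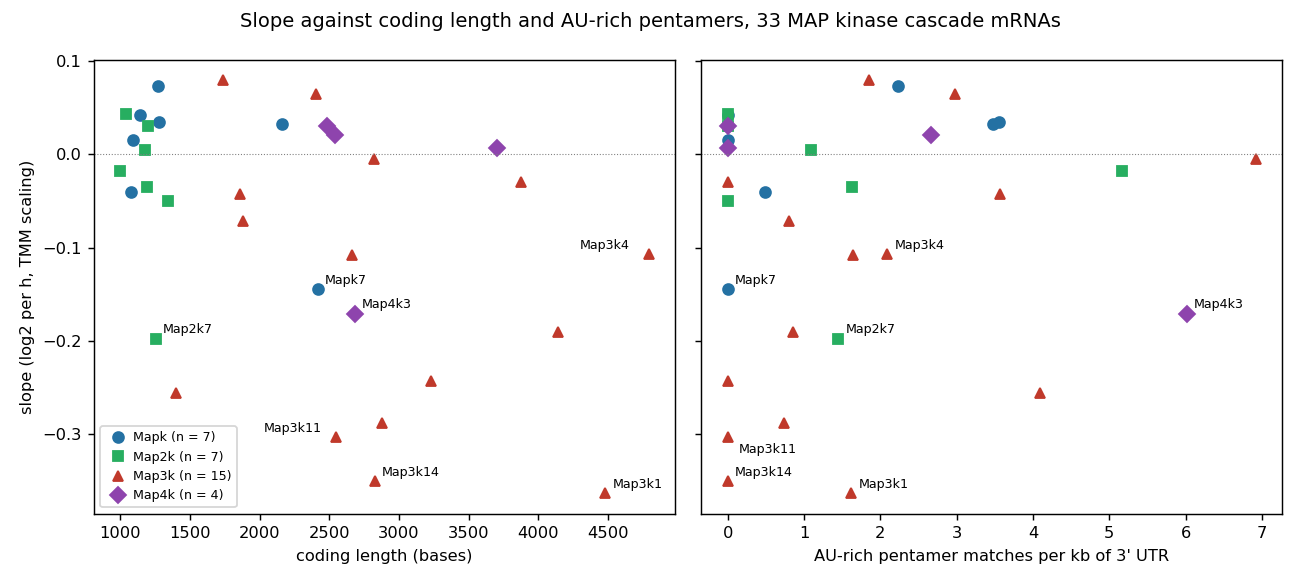
The slope in log2 per h (y axes) is plotted against coding length in bases (left) and against AU-rich pentamers per kb of 3' UTR (right) for 33 tested genes, 1 point per gene and 1 marker per tier. The steep negative slopes lie mostly among longer coding regions, and Map3k14, Map3k11 and Mapk7 lie at 0 pentamers.

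Among the first-tier kinases, the MEKK genes, whose products act on several MAP2Ks, were all lower by the joint test, as were 36.8% of all genes. Map3k1 (MEKK1, chr13:111746428-111808993), which feeds JNK and ERK, had 3777, 1854, 1924 and 339 counts at 0, 2, 4 and 6 h, which are levels of 34.5%, 20.4% and 22.3% (95% counting interval of the last 19.9 to 25.0%). All 3 treated libraries lay far below the untreated one and most of the drop came before 2 h. Its slope was −0.36 ± 0.082 log2 per h (SE, edgeR adjusted p = 0.0426), the steepest of the members over all 4 libraries, and it bent upward (edgeR adjusted p = 1.87e-05). Without the untreated library the slope was −0.17, less steep than that of Map3k11 at −0.23, and without the 6 h library it was −0.57. Map3k4 (MEKK4, upstream of p38 and JNK) fell more slowly and evenly, to 83.8%, 72.1% and 64.1%, with a slope of −0.11 ± 0.014 (edgeR adjusted p = 0.0199). Map3k3 (MEKK3, upstream of ERK5) was at 73.4%, 69.4% and 73.6% with an upward bend (edgeR adjusted p = 0.0033). Its slope of −0.071 did not pass but did, as a fall, under 2 of 13 alternatives. Map3k2 (MEKK2) stayed highest of the group, at 89.1%, 82.5% and 84.1%, and its slope did not pass (edgeR adjusted p = 0.125). Without the 4 h library the slopes of Map3k1 and Map3k4 no longer passed (edgeR adjusted p = 0.0691 and 0.0766), and Map3k1 also missed the threshold with scaling on ribosomal protein mRNAs (0.0524), Map3k4 with scaling on total counts (0.504).

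The mixed-lineage and leucine-zipper kinases, which act mainly on the JNK arm, ranged most widely. Map3k11 (MLK3, chr19:5688742-5702865) had 2389, 1806, 1948 and 278 counts, or 53.2%, 32.7% and 29.0% of untreated at 2, 4 and 6 h (interval at 6 h 25.5 to 32.8%). It declined at every step, with a slope of −0.30 ± 0.041 (edgeR adjusted p = 0.0211) and an upward bend (edgeR adjusted p = 0.0020). It was the only member whose slope passed under all 13 alternatives for scaling, filter, tool and omitted library. Map3k9 (MLK1) was at 52.6%, 29.6% and 40.8%, and Map3k13 (leucine-zipper kinase, LZK), which carries the nonamer, at 59.5%, 29.0% and 38.3%. Map3k13 passed the filter through its early libraries, with 2.14, 1.27, 0.619 and 0.818 CPM, so its low later level is given as a description only. Both turned up between 4 and 6 h, but the 6 h values rest on 32 and 10 counts, with intervals of 27.2 to 59.6% and 17.5 to 75.0%. Neither slope passed (edgeR adjusted p = 0.0851 and 0.0681). As a fall, that of Map3k9 passed under 2 of 12 alternatives and that of Map3k13 under 3 of 11. Map3k12 (DLK) was at 69.7%, 58.5% and 66.1%, whereas Map3k10 (MLK2) stayed at 92.8%, 96.4% and 96.3%. Map3k20 (ZAK, a sensor of stalled ribosomes) lay on the other side, at 120.1%, 126.4% and 132.4%. Its slope of 0.064 ± 0.016 did not pass (edgeR adjusted p = 0.0515) but did, as a rise, under 4 of 13 alternatives. With the authors' divisors Map3k20 was at 98.7%, 91.6% and 92.5%, with a slope of −0.022.

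Map3k14 and Map3k8 had dropped furthest by 2 h apart from Map3k1. Map3k14 (NIK), the kinase that starts noncanonical NF-kB signalling, had 809, 221, 459 and 71 counts, or 19.2%, 22.7% and 21.8% of untreated (interval at 2 h 16.5 to 22.3%). It lost its level within 2 h and was flat from then on, so it bent upward (edgeR adjusted p = 0.0119). Its slope of −0.35 ± 0.12 did not pass (edgeR adjusted p = 0.0942) but did, as a fall, under 3 of 13 alternatives. Without the untreated library the slope was 0.055. Map3k8 (TPL2), which links Toll-like receptors to MEK1 in macrophages, had 192, 103, 176 and 26 counts and levels of 37.7%, 36.8% and 33.7%. It showed the same early drop and plateau, with an upward bend (edgeR adjusted p = 0.0449) and a slope that did not pass (0.0749). That slope passed, as a fall, under 3 of 12 alternatives.

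Map3k5 (ASK1), which responds to oxidative stress, had 1590, 1489, 1892 and 295 counts and levels of 65.9%, 47.7% and 46.2%. It fell, with a slope of −0.19 ± 0.033 (edgeR adjusted p = 0.0297), which missed the threshold only without the 4 h library (0.0639). Its relative Map3k6 (ASK2) was at 106.6%, 89.7% and 92.8%, with a slope of −0.029 ± 0.039. Map3k7 (TAK1), the kinase that joins Toll-like receptor and TNF signals to both NF-kB and the MAP kinases, was the highest member. It had 2710, 4980, 9351 and 1538 counts and levels of 129.2%, 138.3% and 141.3% (interval at 6 h 132.6 to 150.4%), with a downward bend (edgeR adjusted p = 0.0117) and a slope of 0.079 ± 0.022 that did not pass (0.0622). That slope passed, as a rise, under 2 of 13 alternatives. On the scale of the authors' divisors Map3k7 stood at 106.2%, 100.2% and 98.6% of untreated, close to level over the 6 h, with a slope of −0.0073.

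Among the second-tier kinases only Map2k7 fell. Map2k7 (MKK7, chr8:4238740-4247897), which activates JNK alone, had 1100, 1101, 1410 and 197 counts and levels of 70.4%, 51.4% and 44.6% (interval at 6 h 38.1 to 51.9%). It declined at every step, with a slope of −0.20 ± 0.025 (edgeR adjusted p = 0.0195), and missed the threshold only without the 4 h library (0.0588). Map2k4 (MKK4), which can activate JNK and p38, stayed at 91.4%, 90.0% and 85.5%, with a slope of −0.035 ± 0.016 (edgeR adjusted p = 0.151). Of the MEK genes of the ERK arm, Map2k1 was near level, at 99.7%, 106.2% and 99.9%. Map2k2 was at 105.5%, 114.9% and 111.7% and was higher by the joint test (edgeR joint adjusted p = 0.0189), as were 32.8% of all genes. Map2k3 (MKK3), the main p38 kinase by level here, was at 103.8%, 112.8% and 118.7%, with a slope of 0.043 ± 0.011 (edgeR adjusted p = 0.0549). Map2k6 (MKK6), with 114 untreated counts, was at 111.0%, 103.7% and 93.9%. Map2k5 (MEK5), the kinase of ERK5, was at 106.1%, 87.3% and 84.9%, with a slope of −0.050 ± 0.022 (edgeR adjusted p = 0.147). The slope of Map2k5 passed, as a fall, under 3 of 13 alternatives. With the authors' divisors the slopes of Map2k1, Map2k2 and Map2k3 turned to −0.083, −0.057 and −0.044.

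Among the terminal kinases Mapk3 (ERK1) stood above the typical mRNA at each treated time. It had 1938, 3171, 5842 and 933 counts and levels of 115.1%, 120.9% and 119.8%. Its slope of 0.043 ± 0.017 did not pass (edgeR adjusted p = 0.121) and turned to −0.044 with the authors' divisors. Mapk9 (JNK2) had 1253, 2166, 4000 and 696 counts and levels of 121.6%, 128.0% and 138.3%. Its slope was 0.074 ± 0.018 (edgeR adjusted p = 0.0482), a rise that passed under 3 of 13 alternatives and turned to −0.013 with the authors' divisors. Mapk8 (JNK1) was at 109.7%, 117.6% and 114.7%, and its slope of 0.035 ± 0.018 did not pass and likewise turned, to −0.052.

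Mapk14 (p38 alpha), the main target of p38 inhibitors in macrophages, had 4139, 5633, 9391 and 1402 counts and levels of 95.7%, 91.0% and 84.3%, lower at each time. Its slope of −0.041 ± 0.012 did not pass (edgeR adjusted p = 0.0641) but did under 5 of 13 alternatives. Mapk11 (p38 beta), with 99 untreated counts, was at 95.9%, 113.0% and 100.6%, and its slope of 0.015 turned to −0.074 with the authors' divisors. Mapk6 (ERK3, an atypical MAP kinase whose protein turns over quickly), which carries the nonamer, was at 97.8%, 108.3% and 112.2%, with a slope of 0.032 ± 0.013 that did not pass and likewise turned, to −0.055. Mapk7 (ERK5) was the exception in this tier. It had 903, 631, 1030 and 195 counts and levels of 49.1%, 45.7% and 53.7% (interval at 2 h 44.3 to 54.5%), with an upward bend (edgeR adjusted p = 0.0015). Its whole drop came before 2 h, so its slope of −0.14 ± 0.066 did not pass (edgeR adjusted p = 0.150), did pass without the 6 h library (0.0413) and was 0.027 without the untreated library.

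Of the Map4k genes, which can act above the first tier, 4 stayed level or above the typical mRNA and 1 fell. Map4k3 (GLK) had 415, 414, 541 and 84 counts and levels of 70.1%, 52.3% and 50.4% (interval at 6 h 39.4 to 63.8%). Its slope was −0.17 ± 0.036 (edgeR adjusted p = 0.0392). This call was lost without the untreated, 2 h or 4 h library (edgeR adjusted p = 0.0891, 0.0512 and 0.122) and with scaling on total counts (0.102). Map4k4 (HGK), the most abundant of the tier by counts, was at 104.5%, 106.6% and 102.3%, and Map4k1 (HPK1, a blood-cell kinase) at 109.6%, 113.6% and 113.6%. Map4k5, which carries the nonamer, was at 97.9%, 103.1% and 108.1%. The slopes of Map4k1, Map4k4 and Map4k5 turned negative with the authors' divisors, at −0.057, −0.080 and −0.067.

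Grouped by the terminal kinase they serve, the MAP2K and MAPK genes of the JNK arm (Mapk8, Mapk9, Map2k4 and Map2k7) showed a median of −0.00013 log2 per h in slope, with Map2k7 at its low end and Mapk9 at its high end, and the p38 arm (Mapk11, Mapk14, Map2k3 and Map2k6) had −0.0012. The ERK5 arm, Mapk7 and Map2k5, had −0.097. Both genes were lower by the joint test, as were 36.8% of all genes. Map2k5 was close to the threshold (edgeR joint adjusted p = 0.0454), and neither its slope nor its bend passed alone. The upstream MEKK genes had a median of −0.089 and the tested mixed-lineage and leucine-zipper genes of −0.18, with slopes from −0.30 to 0.064. The second median includes Map3k13, which passed the CPM filter through its early libraries, so it is a description only.

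The share of each gene within a pair of close relatives does not depend on how libraries are scaled. The clearest shift was between the JNK kinases: Map2k4 made up 54.6% of the summed Map2k4 and Map2k7 counts in the untreated library (exact binomial 95% interval 52.6 to 56.6%), then 60.9%, 67.8% and finally 69.7% (66.0 to 73.2%). The share was higher at each later time and the intervals at 0 and 6 h were far apart. Map2k1 made up 59.1% of Map2k1 and Map2k2 (58.2 to 60.1%) before treatment and 57.8%, 57.2% and 56.4% afterwards (54.9 to 57.9% at 6 h), a small decrease beyond counting error. The share of Mapk8 in Mapk8 and Mapk9 was 46.1% (44.1 to 48.2%), 43.6%, 44.0% and 41.5% (38.7 to 44.4%). The intervals at 0 and 6 h overlap at their edges only, which does not show that the share was unchanged, and the difference was not tested. The p38 alpha gene Mapk14 made up 97.7%, 97.7%, 97.1% and 97.2% of Mapk14 and Mapk11, and Map2k3 97.7%, 97.5%, 97.9% and 98.2% of Map2k3 and Map2k6. With 1 library at each time, these intervals hold no spread between cultures.

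**Figure D4:**
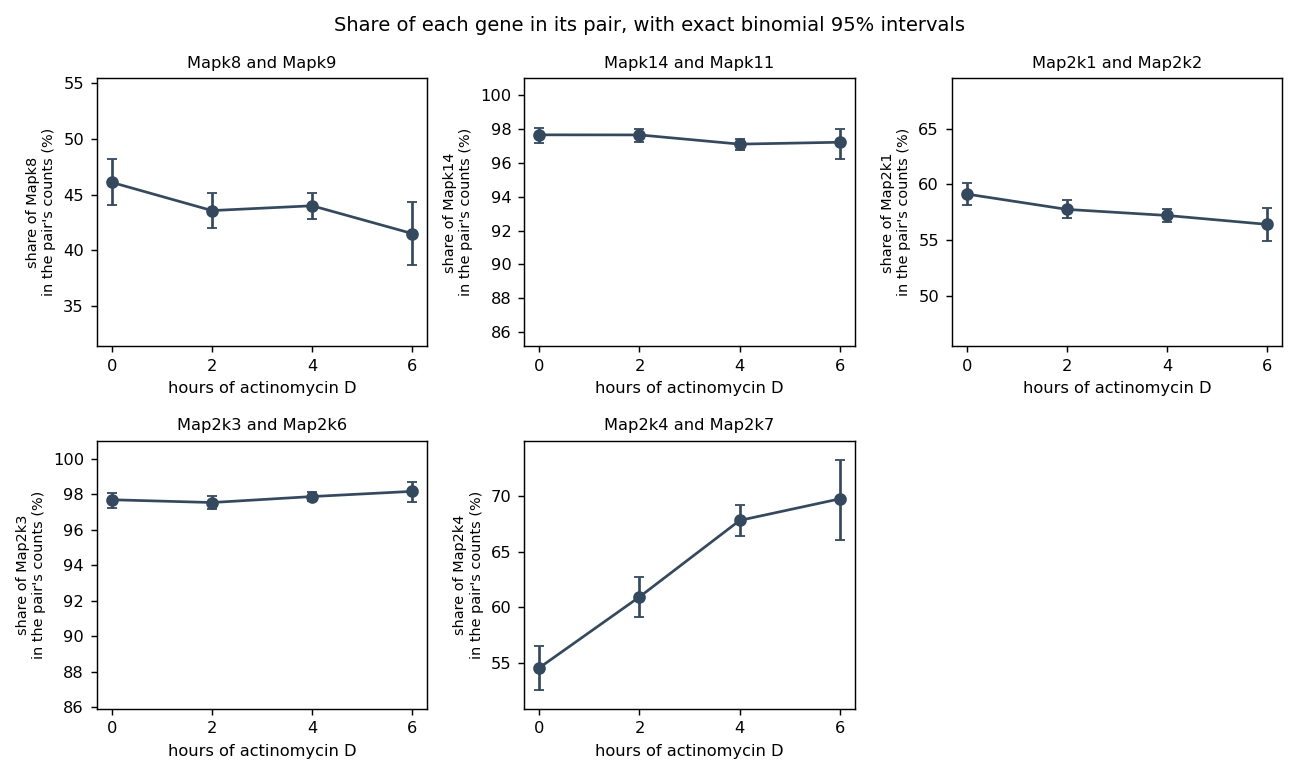
The share of the first gene in the summed counts of each of 5 pairs, in percent (y axes, each spanning its own range and not starting at 0), is plotted against hours of actinomycin D (x axes), with exact binomial 95% intervals and 1 library per point. Map2k4 climbs from 54.6% to 69.7% of its pair, Map2k1 slips from 59.1% to 56.4%, and Map2k3 stays between 97.5% and 98.2%.

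The authors' deposited table gives a half-life in hours and an R2 for each gene. The deposited half-lives were recovered to within 0.001% for 14071 of 14071 genes above 0 in every library by a line through the untreated level over the authors' normalized values at 0, 2 and 4 h, so the 6 h value does not enter them. In the authors' deposited table the median half-life was 8.56 h over all tested genes and 6.97 h over the 35 members. By tier the deposited medians were 13.0 h for Mapk, 9.57 h for Map2k, 3.05 h for Map3k and 10.4 h for Map4k genes. Of the 15 Map3k genes, 13 lay on the fast side of the all-gene median (1 of the other 2 has a negative deposited half-life), against 2 of 8 Mapk, 3 of 7 Map2k and 1 of 5 Map4k genes. The shortest deposited half-lives were those of Map3k14, at 1.27 h, and Map3k1, at 1.36 h, and Map3k9, Map3k13, Map3k8 and Map3k11 lay between 1.77 and 1.87 h. Map3k13, also counted among the 13, passed the CPM filter through its early libraries, so its short half-life is a description only. Mapk7 had 2.22 h and Map2k7 2.75 h in the authors' deposited table. At the slow end of that table were Map3k20 at 36.8 h and Mapk9 at 45.5 h, whose normalized values hardly declined. Map3k7 has a negative deposited half-life, −107.9 h with an R2 of 0.230, since its fitted line rose slightly. Such long or negative values come from nearly flat lines and give little beyond that.

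Entering the 6 h value into the same line, an alternative added after seeing the data, lengthened the half-life by over 10% for 29 of the 34 tested members with a positive value and shortened it by over 10% for 0. The same share over all genes was not computed, so this count does not set the members apart from other genes. Map3k14 went from 1.27 to 1.75 h, Map3k1 from 1.36 to 1.82 h, Mapk7 from 2.22 to 3.20 h and Mapk9 from 45.5 to 75.2 h. For genes such as Map3k14 and Mapk7, which dropped before 2 h and then stayed level, no single half-life describes the 4 libraries.

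**Figure D5:**
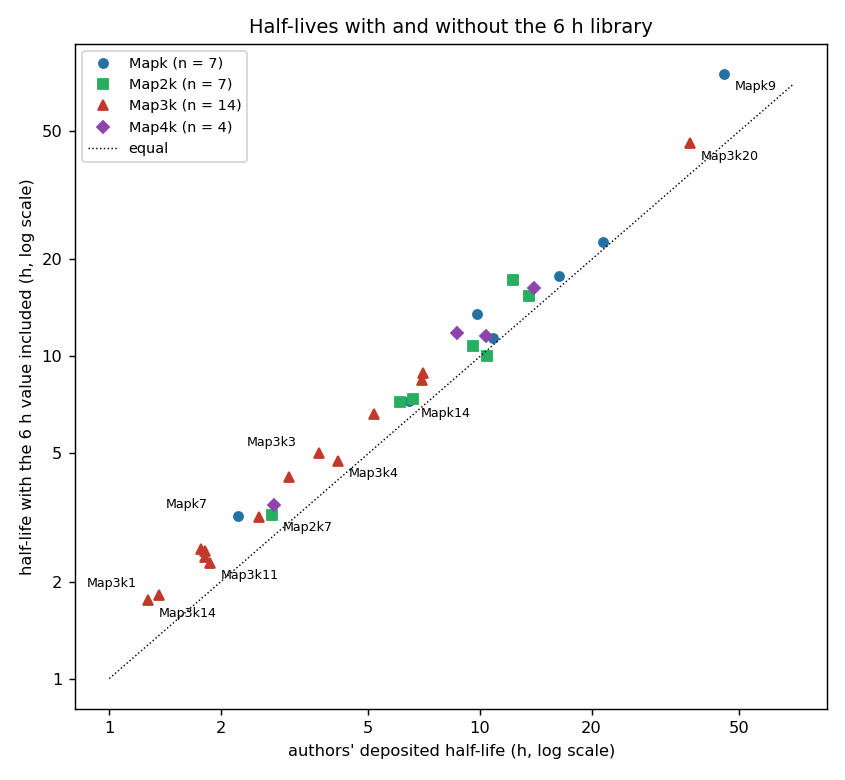
The half-life from the authors' normalized values with 6 h included (y axis, h, log scale) is plotted against the authors' deposited half-life (x axis, h, log scale) for 32 tested genes with a positive value, 1 point per gene, and the dotted line marks equal values. Nearly all points lie above the line, Map3k14 at 1.27 and 1.75 h and Mapk9 at 45.5 and 75.2 h, and most Map3k genes lie at the short end.

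Other genes of these pathways were taken from a list of 58, of which 57 were in the table and 45 were tested. Of these, 5 fell and 5 rose, where 17.2% and 8.63% of all genes did, and the median slope was 0.0099 log2 per h. Among RAS and its exchange factors, which switch on the RAF kinases, Sos1 was at 68.2%, 51.0% and 53.0% of untreated, with a slope of −0.16 ± 0.035 (edgeR adjusted p = 0.0420). Nras, in contrast, was at 157.6% at 6 h, with 0.11 ± 0.019, and Rasgrp3 at 132.3%, with 0.064 ± 0.012 (edgeR adjusted p = 0.0297 and 0.0328). Among scaffolds and adaptors, Tab1, the activating partner of TAK1, fell to 43.4%, 37.0% and 30.4%, with a slope of −0.27 ± 0.055 (edgeR adjusted p = 0.0363). Map3k7 itself stood at 141.3% at 6 h. Tab2 and Tab3, also listed, were at 114.0% and 70.9% at 6 h, and neither slope passed (edgeR adjusted p = 0.0986 and 0.0629). Shoc2, which helps to activate RAF, fell to 57.2% at 6 h, and Iqgap1 and Pebp1 rose to 134.3% and 127.3%. Of the other first-tier kinases outside the naming pattern, Taok3 fell to 69.4%, and of the kinases activated by MAP kinases, Rps6ka3 (RSK2) rose to 150.0%. These rises are relative to the typical RNA: with the authors' divisors 22 of the 45 fell, against 46.5% of all genes, and none rose, also at an unadjusted p under 0.05. Without the 4 h library edgeR called none of the list in either direction, with 6 lower and 4 higher at an unadjusted p under 0.05. Of all genes 3.68% fell and 0.313% rose in that fit by adjusted p.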

How the data were processed

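The authors aligned reads with STAR 2.5.3a to the mm10 build and counted them per gene with featureCounts of Subread 1.6.3, per the submitters' processing notes; strand setting and annotation release: not given in the sources used here. The deposited table holds raw counts, a normalized signal that is each count divided by 1 number per library (1300, 2250, 4476 and 748 by recomputation, of origin not stated), and 2 scores of the authors, the half-life in hours, which can be negative, and R2 of its line.

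From the counts, genes with a mean CPM of at least 1 were scaled by TMM and fitted with edgeR 4.0.16 (R 4.3.3), with time in hours and, for the bend, its square, and a gene was called at a Benjamini-Hochberg adjusted p under 0.05 over all 10837 genes. The code of the fits was also run on simulated counts, with the same spread for every gene and few changed genes, unlike these data. That run does not bear on the calls given here. Levels carry conditional binomial 95% intervals. Of the tested symbols, 90.6% matched GENCODE. Members and lists were chosen with earlier results of these data known, and some genes are named from outside the rule for named genes (passing a test, the extremes and the 2 most abundant of a tier, and pairs of relatives) after their values were seen. Some genes that the rule takes are not reported here. Alternatives were DESeq2 1.42.0 (its size factors and its Wald test), scaling on total counts, on total counts without the 4 dominant RNAs, on 80 ribosomal protein mRNAs or by the authors' divisors, other filters (none, or a mean CPM of at least 5), and leaving out each library.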

Additional observations from a re-analysis of the deposited data

How the results depend on the processing

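No paired analysis was possible because each time has 1 library. Of the 6 genes that fell, Map3k11 passed under all 13 alternatives, Map2k7 and Map3k5 under 12, Map3k1 and Map3k4 under 11 and Map4k3 under 9; the cause of the lost calls was not tested. The count of members that fell was 20 with the authors' divisors and 16 with the joint test (46.5% and 36.8% of all genes). Members that rose numbered 2 with DESeq2 size factors, 2 with the stricter CPM filter of 5 and 5 with the DESeq2 Wald test (9.59%, 11% and 14.1% of all genes). With the joint test they numbered 10 (32.8% of all genes). None rose with total counts, total counts without the 4 dominant RNAs, ribosomal protein mRNAs, the authors' divisors, no filter or unadjusted deviances (an added edgeR setting). Under those settings 0.72% to 8.03% of all genes rose. The count that bent was 16 with total counts, where 51.9% of all genes bent. The median member slope was −0.088 with ribosomal protein mRNAs, −0.12 with the authors' divisors and −0.0029 with the stricter filter, where 28 members remained.

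Of the pathway list, 1 fell with total counts, 8 without the 4 dominant RNAs, 12 with ribosomal protein mRNAs, 22 with the authors' divisors, 8 with the stricter filter and 8 with the DESeq2 Wald test. Of all genes, 12.5%, 19.5%, 23.4%, 46.5%, 20% and 20% fell under these settings in turn. Under the first 4 of them 0, 2, 1 and 0 of the list rose, against 1.91%, 3.08%, 1.12% and 0.72% of all genes. Leaving out each library in turn, 1 to 10 members fell, 0 to 2 rose and the median slope was −0.033 to −0.00018. Of the pathway list 0 to 9 fell and 0 to 4 rose. Of all genes, 3.68% to 21.7% fell and 0.313% to 11.9% rose in these fits. With the authors' divisors the median level was 78.8%, 65.9% and 64.8% at 2, 4 and 6 h, and all 35 slopes were negative, among them, after a positive slope with TMM, those of Mapk3 (−0.044), Mapk9 (−0.013), Map2k1 (−0.083), Map2k2 (−0.057), Map4k1 (−0.057) and Map4k4 (−0.080, and −0.052 with ribosomal protein mRNAs). Scaling cannot move a pair share, since both counts share a divisor. Depth limits Map3k13, Map3k8, Map3k12 and Map3k9 most, with 10, 26, 30 and 32 counts at 6 h.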

Other observations

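Between 4 and 6 h, 16 of the 35 tested members had a higher TMM-scaled level at 6 h than at 4 h, as did 49.4% of all tested genes. In the first tier these were 9 of 15, among them Map3k1, Map3k9, Map3k12 and Map3k13, and in the Mapk tier 4 of 8, among them Mapk7.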
